A study of Mus musculus with 11 samples.

Results

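The clustered histone genes of the mouse carry the names Hist1h, Hist2h, Hist3h and Hist4h, followed by the histone they encode. Every row whose gene name began with 1 of these prefixes was taken, which gave 64 of the 34570 genes listed for either cell type. By name they comprised 6 genes of the linker histone H1, 17 of H2A, 17 of H2B, 11 of H3 and 13 of H4. Among these, Hist1h2aj and Hist1h2al, counted with H2A, and Hist3h2bb-ps, counted with H2B, are annotated as pseudogenes. For mESCs 59 of them were listed among 31518 genes, and for MEFs 62 among 29450. In the mm10 build, 52 lay on chromosome 13, 8 on chromosome 3, 3 on chromosome 11 and 1 on chromosome 6.

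Poly(A)-selected RNA was sequenced from mouse embryonic stem cells (mESCs) and mouse embryonic fibroblasts (MEFs), to ask what the loss of ATXN7L3 does to transcripts. ATXN7L3 is an adaptor that the deubiquitylases USP22, USP27X and USP51 need to remove ubiquitin from histone H2B. The 11 libraries used here were 2 of WT mESCs, 3 of Atxn7l3-/- mESCs, 3 of WT MEFs and 3 of MEFs labelled Atxn7l3-/-. WT means Atxn7l3+/+. The mESCs were on a DBA/2 x C57BL/6 background, each line came from its own blastocyst, and all 5 were grown in serum with LIF and the inhibitors PD0325901 and CHIR99021. The first passages were on feeder cells. The MEFs were grown from E10.5 embryos whose head and gut had been removed, and every -/- culture also held round cells, so the MEF groups did not differ in the allele alone. Each library is 1 line or 1 embryo, so the p-values measure the spread between lines or embryos. The authors dropped a further WT mESC dataset after a principal component analysis, since it fell apart from the others. The spread of WT mESCs therefore comes from the 2 lines that were kept.

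Most clustered histone genes are replication-dependent. They have no introns, they are transcribed in S phase, and their messenger RNAs end just after a conserved stem-loop in place of a poly(A) tail. The stem-loop-binding protein SLBP, the U7 snRNP and a nuclease complex make that end. H1 binds the linker DNA, while H2A, H2B, H3 and H4 form the nucleosome core, and H2B is the histone that ATXN7L3-dependent enzymes deubiquitylate. A library selected on poly(A) tails therefore does not measure the whole pool of these messages. It measures the molecules that carry a tail, together with whatever tailless RNA passed the selection, and these could not be told apart here.

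The libraries held between 34515342 and 49602605 counts, of which the clustered histone genes took between 0.00148% and 0.0313%. Levels are given in CPM, a gene's share of the library's counts on a fixed scale, after TMM scaling over the 11 libraries, per kb of transcript where genes are compared with each other. Atxn7l3 stood at 196.4 and 202.4 CPM in WT mESCs and at 3.33, 1.60 and 0.831 CPM in Atxn7l3-/- mESCs. In MEFs it stood at 86.4, 116.7 and 103.7 CPM in WT and still at 56.4, 55.3 and 73.2 CPM in the libraries labelled Atxn7l3-/-, a fall that was not called (edgeR's quasi-likelihood test, Benjamini-Hochberg adjusted p = 0.0715), so every MEF direction below rests on the labels. At the protein level, the paper reports that ATXN7L3 was undetectable and ubiquitylated H2B strongly raised in Atxn7l3-/- MEFs. Whether those blots used the cultures sequenced here is not stated. The summed level of the 10 mESC markers was 3610 to 4682 CPM in mESCs, and the 6 of them listed for MEFs summed to 0.817 to 49.4 CPM there. The 10 fibroblast markers summed to 21282 to 56536 CPM in MEFs, against 1410 to 5173 CPM in mESCs. The 5 mesothelial markers summed to 14.3 to 40.2 CPM in WT MEFs and to 3989 to 5823 CPM in MEFs labelled Atxn7l3-/-, and 4 of the 5 were called higher. The 8 macrophage markers ranged from 584.4 to 1199 CPM in WT MEFs and from 855.5 to 6245 CPM in the -/- ones, with none called at an adjusted p of 0.05 (edgeR's quasi-likelihood test). The erythroid markers listed summed to 0.219 to 1.04 CPM in WT MEFs and 1.28 to 11.4 CPM in the -/- ones, with Alas2 called higher, and the endothelial markers to 4.09 to 76.1 and 1.53 to 9.88 CPM, with none called. The part of these cell type differences in the histone results was not tested. In bulk RNA, fewer cells of a type and less RNA per cell cannot be told apart.

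The 3′ ends matter for reading these data, so the stem-loop was located first. The consensus of the stem-loop, 16 bases that start with GG and end with CC and hold CTT and AG at fixed places, was searched on the sense strand of the GENCODE M21 transcripts, where 0.355% of protein-coding transcripts hold it. Among the 64 genes, 42 had the stem-loop in an annotated transcript, starting 21 to 58 bases after the stop codon. The annotation of 20 of these ended within 74 bases of it, and that of the other 22 ran on for 108 to 4884 bases more. In the remaining 22 genes it was not found in any annotated transcript. Some of these models are short, with 312 bases for Hist1h4k and 381 for Hist1h2bl and Hist1h2bn, and may stop before the place where a stem-loop would lie. Not finding it there does not show that the gene lacks it. The stem-loops below belong to the genes on which the results turn. The capitals mark the stem-loop, and the lower-case letters are the bases on either side, read 5′ to 3′ on the strand of the gene.
Hist1h1c, chr13:23739505-23739534, plus strand: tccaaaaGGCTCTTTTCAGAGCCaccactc
Hist3h2a, chr11:58955165-58955194, plus strand: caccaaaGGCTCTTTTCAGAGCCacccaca
Hist1h2be, chr13:23585524-23585553, minus strand: aaccaaaGGCTCTTTTCAGAGCCacccaac
Hist1h4i, chr13:22040959-22040988, minus strand: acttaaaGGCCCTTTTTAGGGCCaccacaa
Hist1h3b, chr13:23752813-23752842, plus strand: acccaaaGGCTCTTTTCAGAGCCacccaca
Hist1h2ab, chr13:23751565-23751594, plus strand: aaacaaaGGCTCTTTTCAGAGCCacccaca
Hist1h4h, chr13:23531451-23531480, plus strand: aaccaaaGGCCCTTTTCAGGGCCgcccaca

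The annotated transcripts of the first 4 ran on for 840, 1643, 1861 and 330 bases past the stem-loop, and those of the last 3 ended 51, 11 and 46 bases after it. The stem differed by class. The form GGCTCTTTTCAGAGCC stood in 22 genes, none of them H4, whereas all 7 genes with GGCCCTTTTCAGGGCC encode H4. A poly(A) signal of the letters AATAAA lay in the last 50 bases of 10 of the 22 models that run on, and of 1 of the 20 that end at the stem-loop. Most of the 64 genes have a single exon. Exceptions are Hist1h2bc, Hist1h2be and Hist1h2bp, with 2 exons each. Hist1h2bc spans chr13:23684199-23692908, and no stem-loop was found in its annotated transcripts. In the RefSeq promoters matched to 56 of the genes (GRCm38.p6, 250 bases before to 50 after the start, both strands), the letters TATAAA stood in 62.5% of the genes against 15.7% of all genes, and CCAAT in 83.9% against 41.1%.

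Few of the 64 genes were measured well. In all 11 libraries 10 or more counts were reached by 5 genes, namely Hist1h1c, Hist3h2a, Hist1h2bc, Hist2h2be and Hist1h4i, 1 of them of H1, 1 of H2A, 2 of H2B, 1 of H4 and none of H3. At the other end, 14 genes never passed the floor of 3 counts in any library, 9 of them of H2A. A filter on low counts (filterByExpr) passed 15 genes in the fit of mESCs, 22 in that of MEFs and 32 in the joint fit of all libraries. The other 32 genes were tested nowhere, and their highest count in any library was 17, in Hist1h3f. Many histone genes of 1 class have nearly identical coding sequences, so reads within them may have been shared between copies or left uncounted, and the levels of single genes are uncertain to that extent.

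Hist1h1c, a gene of the linker histone H1, was the most abundant of all. Its level was 20.3 and 13.1 CPM in WT mESCs, 8.75, 7.34 and 16.4 CPM in Atxn7l3-/- mESCs, 114.5, 181.5 and 167.4 CPM in WT MEFs and 126.4, 118.8 and 173.9 CPM in MEFs labelled Atxn7l3-/-. The MEF libraries lay far above the mESC libraries, and the genotypes overlapped in both cell types. It held between 44.5% and 73.1% of the summed CPM of the clustered histone genes in each library. Hist1h2bc, an H2B gene, came second, at 2.70 and 2.99 CPM per kb in WT mESCs and 33.2, 31.3 and 76.7 in WT MEFs. Per kb, the mean over all libraries was 55.3 CPM for Hist1h1c and 19.6 for Hist1h2bc. The next genes by that mean were Hist1h4i of H4 at 4.14, Hist1h3b of H3 at 3.87, Hist3h2a of H2A at 2.08 and Hist1h2ba, a testis-specific H2B, at 1.98 CPM per kb. In every library the 5 most abundant genes made up between 73.0% and 92.3% of the histone CPM.

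**Figure D1:**
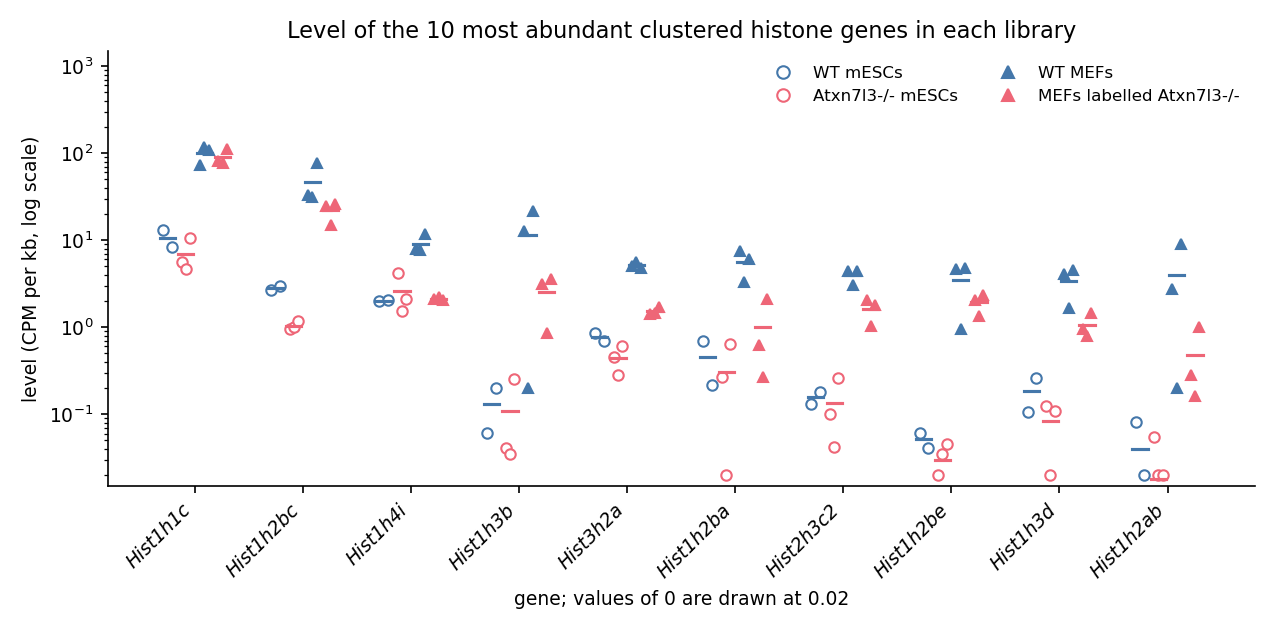
Level of the 10 most abundant clustered histone genes in each library, in CPM per kb on a log axis, with zeros drawn at 0.02. Circles are mESC libraries, triangles MEF libraries, blue WT, red those labelled Atxn7l3-/-, and short lines group means; the 3 WT MEF values of Hist1h3b lie at 12.7, 0.201 and 21.4, apart from each other, while those of Hist3h2a lie between 4.78 and 5.64.

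The leading gene of a class was the same in all 11 libraries for H1 (Hist1h1c), H2A (Hist3h2a), H2B (Hist1h2bc) and H4 (Hist1h4i). It was not for H3. There Hist1h3b led by CPM in 2 of the 3 WT MEF libraries and Hist2h3c2 in the other one. In mESCs the H3 counts were too small to name a leading gene, since Hist1h3d and Hist2h3c2 tied at 7 counts in WT replicate 1, and Hist1h3c, Hist1h3g and Hist2h3c2 at 2 counts in Atxn7l3-/- replicate 2. Hist1h3c had 3 and 11 counts in WT mESCs and 16, 2 and 18 in Atxn7l3-/- mESCs, groups that overlap.

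In the RNA that passed poly(A) selection, WT MEFs held more clustered histone RNA than WT mESCs. The summed level was 33.1 and 28.9 CPM in WT mESCs and 238.1, 260.0 and 356.2 CPM in WT MEFs, a ratio of the means of 9.19, and 7.51 without the scaling factors. By class the ratio was 8.80 for H1, 8.20 for H2A, 11.2 for H2B, 15.9 for H3 and 4.57 for H4, though that of H3 was 26.4 without WT mESC replicate 2, and in each class every WT MEF library lay above both WT mESC libraries. Of the 32 genes tested, 20 were called higher in WT MEFs, where 26.8% of all 19326 genes were, and 1 was called lower, where 27.1% were (edgeR's quasi-likelihood test, adjusted p of 0.05 or less). The filter lets a gene pass through 1 group alone, so those shares favour genes that differ. With no filter the same counts, 20 and 1, came from 57 genes, beside 19.3% of all genes called higher and 19.7% lower. The median log2 fold change of the tested histone genes was 3.20, against 0.0 over all genes. The count depended on the WT mESC libraries, with 12 genes called higher without replicate 1 and 9 without replicate 2.

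**Figure D2:**
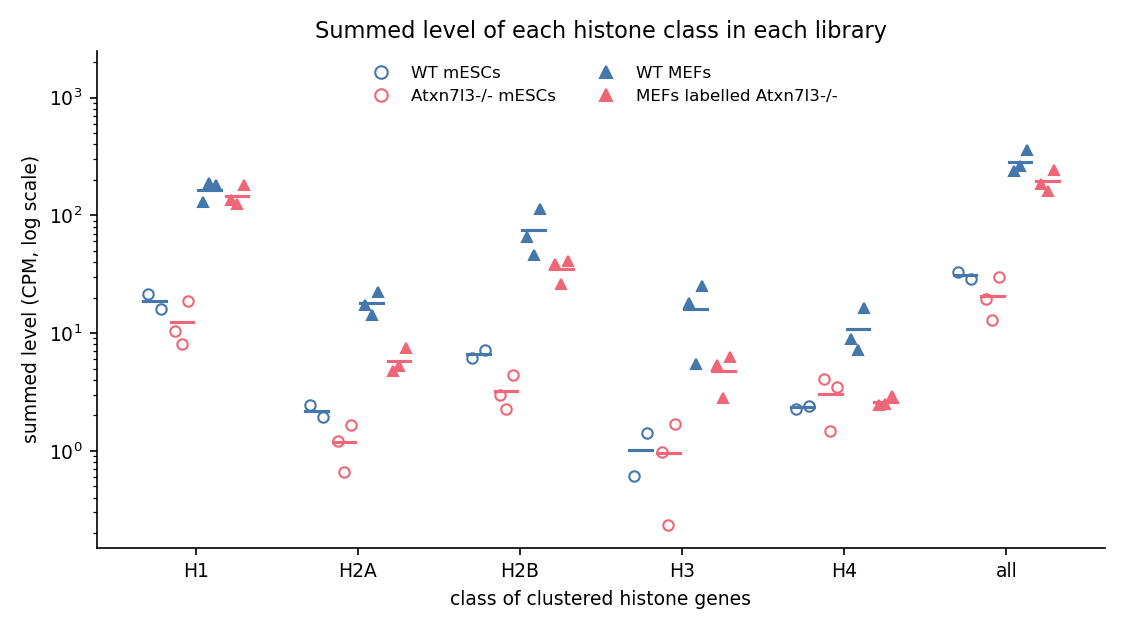
Summed level of each histone class, and of all 64 genes, in each library (CPM, log axis). Symbols are as in the plot of single genes; every class lies higher in WT MEFs than in WT mESCs, and the 3 MEF libraries labelled Atxn7l3-/- lie below the 3 WT ones for H2A, H2B and H4 but not for H1.

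All 5 classes took part. In H1, Hist1h1c rose by 3.21 on the log2 scale (SE 0.42, adjusted p = 1.54e-04, edgeR's quasi-likelihood test), and Hist1h1d and Hist1h1e rose as well, by 3.18 and 3.35, the latter not called with the replicate block (adjusted p = 0.0632). In this comparison of WT cells the replicate block joined mESC lines with MEF embryos by number alone, so it stands for no known pairing. Hist1h1a and Hist1h1b, 2 further H1 subtypes, had log2 fold changes of -0.24 each and were not called. Hist1h1a had 12 and 43 counts in WT mESCs and 30, 4 and 27 in WT MEFs.

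H2B showed both directions. Hist1h2bc rose by 4.05 (SE 0.48, adjusted p = 9.45e-05, edgeR's quasi-likelihood test), from 164 and 168 counts in WT mESCs to 1885, 1161 and 3642 in WT MEFs. Hist1h2be rose by 6.05 (SE 0.93), from 8 and 5 counts to 572, 76 and 490. Its annotation overlaps that of Hist1h1e on the same strand, so reads in the shared stretch belong to neither with certainty. Hist1h2bg, Hist1h2bh and Hist1h2ba also rose, by 3.67, 3.23 and 3.61. Hist2h2be rose by 1.68 (adjusted p = 0.0344, edgeR's quasi-likelihood test), but was not called with the replicate block (0.0642) or with the trend over GC content (0.0647) or length (0.0859) taken out. Hist2h2bb was the 1 clustered histone gene called lower in WT MEFs. It had 12 and 25 counts in WT mESCs and 0, 1 and 2 in WT MEFs, with an adjusted p of 0.0243 in edgeR's quasi-likelihood test, and the ratio of pooled CPM was 0.0671 (0.0132 to 0.212). That call was lost without WT mESC replicate 2 (adjusted p = 0.145) or WT MEF replicate 1 (adjusted p = 0.0685).

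Some of the highest values came from genes whose annotated transcript ends at the stem-loop. Hist1h3b had 2 and 6 counts in WT mESCs and 387, 4 and 546 in WT MEFs (log2 fold change 6.42, SE 1.76, adjusted p = 0.0105, edgeR's quasi-likelihood test). WT MEF replicate 2 thus lay at the level of the mESCs. Hist1h2ab had 2 and 0 counts in WT mESCs and 63, 3 and 175 in WT MEFs, a ratio of pooled CPM of 99.7 with an exact 95% interval of 27.3 to 828.2 that covers counting error only. Hist1h2ad, with 1 and 1 counts against 84, 8 and 71, had a ratio of 67.4 (18.4 to 561.6), and Hist1h4h, with 3 and 3 against 17, 14 and 178, one of 28.8 (13.0 to 79.5). In each of these genes 1 WT MEF library fell far from another.

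Among the other called genes, Hist2h3c2 of H3 rose by 4.64 (SE 0.80), from 7 and 9 counts to 222, 100 and 184. Hist1h3d, also of H3, rose by 4.19 (SE 0.86), and Hist1h2ac of H2A by 3.92 (SE 0.96). Hist1h4a of H4, with 1 and 3 counts in WT mESCs and 17, 3 and 49 in WT MEFs, had a ratio of pooled CPM of 14.3 (5.33 to 53.9) and lost its call with the replicate block (adjusted p = 0.0881, edgeR's quasi-likelihood test), and Hist1h4c of H4, with 2 and 3 against 38, 5 and 34, one of 12.7 (5.23 to 40.4). Hist3h2a and Hist1h4i, the leading genes of H2A and H4, rose by 2.72 (SE 0.47) and 2.16 (SE 0.55). Their WT groups did not overlap, as in 21 of the 32 genes tested, where 34.7% of all genes lay higher in the same way.

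In Atxn7l3-/- mESCs no clustered histone gene was called. Of the 15 tested, 0 were called in either direction by edgeR's quasi-likelihood test, where 3.08% of 17800 genes were called higher and 3.88% lower. At an unadjusted p under 0.05, 1 gene was lower, beside 14.8% of all genes, and 0 were higher, and DESeq2 called 1 gene lower. The median log2 fold change of the 15 was -0.28, against 0.04 over all genes, and its sign rested on single libraries, with 0.10 without WT replicate 2 and 0.28 without Atxn7l3-/- replicate 2. The summed level was 33.1 and 28.9 CPM in WT and 19.6, 12.8 and 30.1 CPM in Atxn7l3-/- mESCs, so that the groups overlapped.

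Hist1h2bc was the gene nearest to a call. It had 164 and 168 counts in WT mESCs and 43, 54 and 60 in Atxn7l3-/- mESCs, with no overlap. Its log2 fold change was -1.40 (SE 0.43, adjusted p = 0.0827, edgeR's quasi-likelihood test), and -1.43 in DESeq2 (adjusted p = 0.00473). All 5 H2B genes tested had a negative log2 fold change, from -1.40 to -0.17, and the summed H2B level was 6.17 and 7.15 CPM in WT against 2.98, 2.27 and 4.38 CPM in Atxn7l3-/- mESCs. The other genes whose groups did not overlap were Hist1h1d, Hist2h2be and Hist3h2a, which makes 4 of 15 lower and 0 higher, beside 26.7% and 23% of all genes. The 3 H4 genes tested had positive values, from 0.11 to 0.61. Hist1h4i stood at 76 and 73 counts in WT and 119, 52 and 68 in Atxn7l3-/- mESCs.

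In MEFs, 2 of the 22 clustered histone genes tested were called lower in the libraries labelled Atxn7l3-/-. These were Hist3h2a and Hist1h4i, beside 4.39% of 15958 genes called lower and 5.01% called higher (edgeR's quasi-likelihood test). None of the 22 was called higher. All 22 had a negative log2 fold change, where 52.5% of all genes did. The filter lets a gene pass through 1 group alone, so the 22 can include genes kept through WT MEFs only. The median was -1.21, against -0.06 over all genes. But 3 of the 22 were positive once each library's trend over transcript length was taken out, and 2 once its trend over GC content was. The median of the 22 was then -0.98 in both fits, against 0.17 and 0.12 over all genes. With no filter, 62 genes gave 2 calls, beside 3.35% of all genes called lower, and a median of -1.60 against -0.18, and 4 were positive. The shares of all genes that were negative or positive in these other fits were not counted. At an unadjusted p under 0.05, 7 of the 22 were lower, beside 17.8% of all genes. That count moved with single libraries, to 15 of 25 without WT replicate 2 and 11 of 26 without -/- replicate 3, but to 4 of 23 without WT replicate 1 and 4 of 27 without -/- replicate 1 or 2.

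Hist3h2a, which encodes an H2A and is the leading H2A gene here, had 528, 388 and 421 counts in WT MEFs and 116, 123 and 122 in those labelled Atxn7l3-/-. The groups were far apart and each was tight. The log2 fold change was -1.76 (SE 0.32, adjusted p = 0.0265, edgeR's quasi-likelihood test), a 3.38-fold fall. Its annotation, chr11:58954685-58956830 on the plus strand, overlaps that of Trim17 on the same strand. Hist1h4i, the leading H4 gene, chr13:22040636-22041362 on the minus strand, had 282, 179 and 349 counts in WT MEFs and 57, 63 and 50 in the -/- ones. Its log2 fold change was -2.11 (SE 0.38, adjusted p = 0.0265, edgeR's quasi-likelihood test), a 4.33-fold fall. Both calls held under all 11 other settings with every library kept, with adjusted p of at most 0.0332 for Hist3h2a and 0.0473 for Hist1h4i. They did not hold with fewer libraries. Hist3h2a was called only without -/- replicate 3 (adjusted p = 0.0391) and was not without WT replicate 1 (0.0597), 2 (0.0514) or 3 (0.0816) or -/- replicate 1 (0.104) or 2 (0.092). Hist1h4i was called without WT replicate 2 (0.0455) or -/- replicate 3 (0.0461) but not without WT replicate 1 (0.0575) or 3 (0.0909) or -/- replicate 1 (0.102) or 2 (0.0912).

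**Figure D3:**
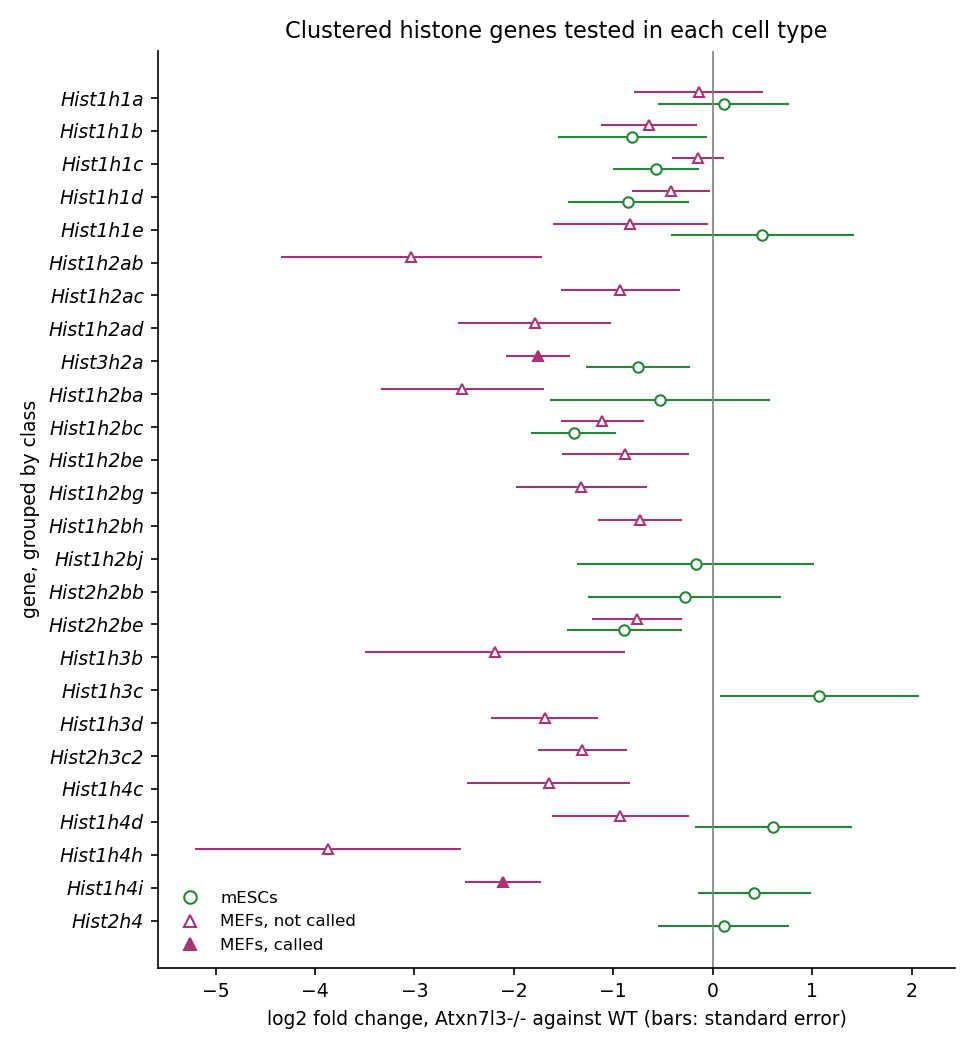
Log2 fold change of each tested clustered histone gene, Atxn7l3-/- against WT, in mESCs (circles) and MEFs (triangles, by label), with standard errors as bars. Filled symbols are called at an adjusted p of 0.05 or less; the MEF values of all 22 genes lie left of 0, and only Hist3h2a at -1.76 and Hist1h4i at -2.11 are filled.

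The remaining H2A, H3 and H4 genes in MEFs had negative values with wide errors, and none was called by edgeR's quasi-likelihood test. DESeq2 called Hist1h3d (adjusted p = 0.0132), Hist2h3c2 (0.0151) and Hist1h4h (0.0163) lower. Hist1h3d of H3 had 250, 66 and 231 counts in WT and 45, 39 and 60 in -/- MEFs, with a log2 fold change of -1.69 (SE 0.54, adjusted p = 0.0904, edgeR's quasi-likelihood test). Hist2h3c2 of H3 had 222, 100 and 184 against 79, 41 and 61. Hist1h4h, at 17, 14 and 178 against 1, 2 and 9, was not called by itself (adjusted p = 0.106, edgeR's quasi-likelihood test) but was when replicate number entered as a block (log2 fold change -3.62, adjusted p = 0.0227), which raised the calls among clustered histone genes from 2 to 3 and all calls of lower genes from 701 to 1355. Hist1h3b and Hist1h2ab did not separate the groups. Hist1h3b read 387, 4 and 546 in WT and 73, 21 and 75 in -/- MEFs, and Hist1h2ab 63, 3 and 175 against 5, 3 and 16, and in both genes WT replicate 2 lay below at least 1 -/- library.

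The H2B genes, which encode the substrate of the ATXN7L3-dependent enzymes, were measured in 6 members in MEFs. Their log2 fold changes ran from -2.52 to -0.73 and none was called. Hist1h2bc had 1885, 1161 and 3642 counts in WT and 1075, 681 and 1014 in -/- MEFs (log2 fold change -1.11, SE 0.42, adjusted p = 0.125, edgeR's quasi-likelihood test). The summed H2B level was 65.1, 45.8 and 113.0 CPM in WT and 38.4, 26.3 and 41.3 CPM in -/- MEFs, without overlap. Hist1h2bc held 59.0% to 79.1% of that sum. Hist1h2ba, the testis-specific H2B, read 143, 41 and 96 in WT and 9, 4 and 27 in -/- MEFs, with an adjusted p of 0.0934 in edgeR's quasi-likelihood test and 0.0163 in DESeq2. Hist2h2be had 394, 121 and 166 against 127, 141 and 86 counts. After scaling it was one of 9 genes of 22 whose groups did not overlap, all lower in -/- MEFs, beside 19.7% of all genes lower in that way and 20.1% higher.

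Of the classes, H1 had the ratio nearest to 1. The summed H1 level was 129.1, 187.1 and 179.7 CPM in WT MEFs and 134.0, 125.6 and 182.5 CPM in -/- MEFs, a ratio of 0.892. That of H2A was 0.324, H2B 0.474, H3 0.299 and H4 0.244. These sums rest largely on 1 gene each. In MEF libraries Hist1h1c held 88.7% to 97.0% of H1 and Hist3h2a 45.8% to 84.3% of H2A. Hist1h2bc held 59.0% to 79.1% of H2B and Hist1h4i 51.0% to 77.5% of H4. Sums without these genes were not formed. The other H1 genes tested had ratios from 0.573 to 0.928. For H2A and H4 every -/- library lay below every WT library, whereas for H3 WT replicate 2, at 5.49 CPM, lay within the -/- range of 2.83 to 6.21 CPM. Between libraries of the same number the H3 sum was lower in the -/- library each time, at 5.38 against 17.9, 2.83 against 5.49 and 6.21 against 24.9 CPM. No label pairs the embryos by number, so this is description only. Hist1h1c itself had a log2 fold change of -0.15 (SE 0.26, adjusted p = 0.711, edgeR's quasi-likelihood test). Hist1h1c held 47.0% to 73.1% of the MEF sums, and the ratio over all 64 genes was 0.688, with 238.1, 260.0 and 356.2 CPM in WT and 185.0, 162.5 and 240.4 CPM in -/- MEFs.

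The effect of genotype was compared between the cell types in the joint fit. Of 32 genes tested, 1 was called, Hist1h4i, with a log2 fold change in MEFs lower than that in mESCs by 2.46 (SE 0.70, adjusted p = 0.0457, edgeR's quasi-likelihood test), where 5.27% of 19326 genes were called lower and 6.14% higher. The median over the 32 was -1.04, against -0.09 over all genes, and -0.16 when replicate number entered as a block. The call was not made with no filter (adjusted p = 0.0626), with the length trend (0.0671) or the GC trend (0.0985) taken out, or with the replicate block (0.0958). It also depended on single libraries, with an adjusted p from 0.031 to 0.167 as each of the 11 was left out, and held in 2 of these fits, without Atxn7l3-/- mESC replicate 2 and without WT MEF replicate 2. For Hist3h2a the difference was -0.94 (adjusted p = 0.287, edgeR's quasi-likelihood test), and for Hist1h2bc 0.35 (adjusted p = 0.695).

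The sums of genes grouped by their annotated 3′ end followed different courses across the libraries, but single genes made up much of each sum. Those that end at the stem-loop summed to 12.0, 1.53 and 26.6 CPM in WT MEFs and to 2.73, 1.33 and 4.15 CPM in -/- MEFs, so that WT replicate 2 was among the low libraries. Hist1h3b made up a mean of 7.1 of 13.4 CPM in WT MEFs. Each -/- library lay below the WT library of the same number, which is description only, since no label pairs them. Genes annotated past the stem-loop summed to 175.5, 216.4 and 232.9 CPM against 149.5, 139.6 and 201.5 CPM, and there WT replicate 2 was not low. Hist1h1c made up most of that sum, with a mean of 154.5 of 208.3 CPM in WT and 139.7 of 163.5 CPM in -/- MEFs. Of the same group, Hist1h2be and Hist1h3d were lowest in WT replicate 2, while Hist3h2a was not. The ratio of -/- to WT means was 0.904 for Hist1h1c, 0.298 for Hist3h2a and 0.233 for Hist1h4i. A sum without Hist1h1c was not formed. The group in which no stem-loop was found, led by Hist1h2bc, summed to 50.6, 42.1 and 96.7 CPM against 32.8, 21.6 and 34.7 CPM. This group mixes Hist1h2bc with short models that may stop before a stem-loop. Without WT replicate 2, the ratio of -/- to WT means went from 0.204 to 0.142 for the genes that end at the stem-loop and from 0.785 to 0.801 for those that run past it.

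Other RNAs that have no poly(A) tail were read beside them. Rn7sk, the 7SK RNA, Rmrp, the RNA of RNase MRP, Rpph1, the RNA of RNase P, and Terc, the telomerase RNA, summed to 2.06, 5.77 and 4.82 CPM in WT MEFs and 1.17, 0.894 and 1.67 CPM in -/- MEFs. WT replicate 2, the lowest WT MEF library for the histone genes that end at the stem-loop, was the highest for these RNAs. In mESCs they summed to 5.67 and 8.77 CPM in WT and 8.23, 3.04 and 18.9 CPM in Atxn7l3-/- libraries. The low library, Atxn7l3-/- replicate 2, was also the lowest mESC library for the histone genes that end at the stem-loop (0.257 CPM), for those that run past it (9.97 CPM) and for those in which none was found (2.57 CPM). Rn7sk had a log2 fold change of -1.50 (SE 0.48) in MEFs, with an adjusted p of 0.088 in edgeR's quasi-likelihood test. Genes of the biotypes snRNA, snoRNA and scaRNA summed to 25.1 to 112.5 CPM over the 11 libraries, and none of them passed the filter. In MEFs these sums went the other way from those of the 4 RNAs above. They were 32.0, 25.1 and 29.2 CPM in WT and 33.4, 42.1 and 36.7 CPM in -/- libraries, with WT replicate 2 the lowest. The part of tailless RNA in the histone levels was not tested.

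**Figure D4:**
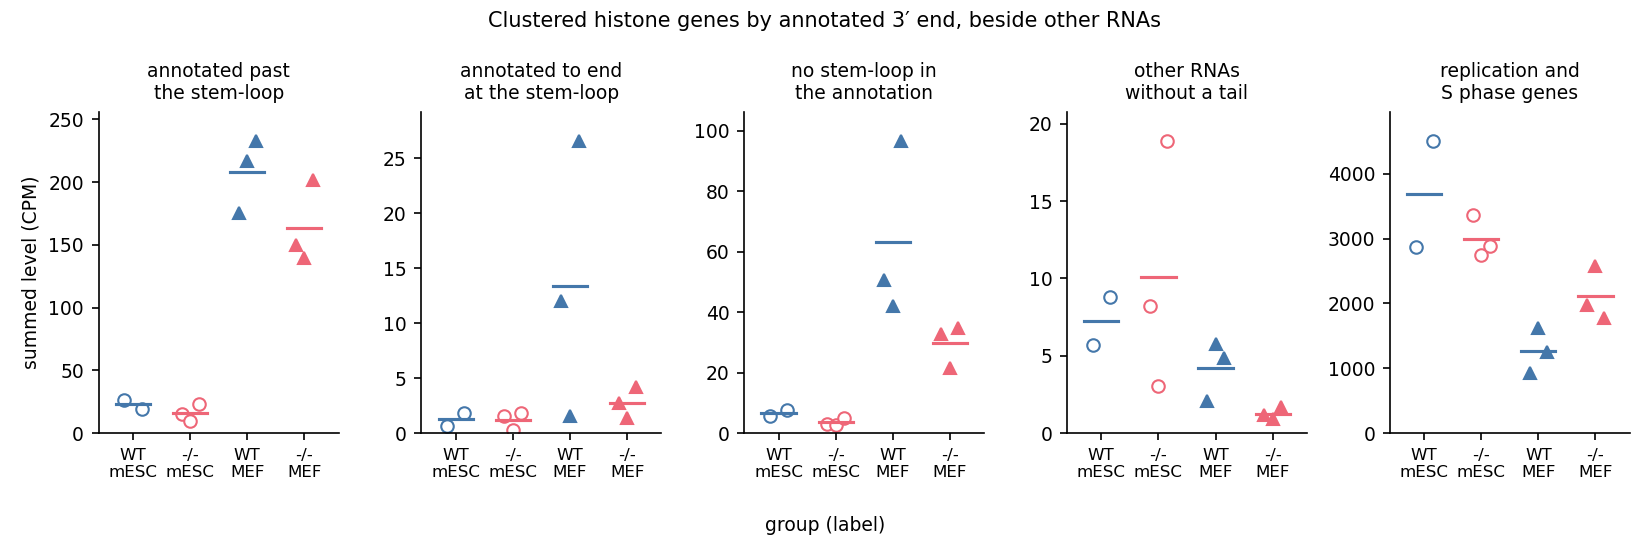
Summed level (CPM, each panel with its own axis from 0) of the clustered histone genes grouped by annotated 3′ end, of 4 other RNAs without a tail and of 20 replication and S phase genes, with a point for each library and a line for each group mean. In the second panel WT MEF replicate 2, at 1.53 CPM, lies far under the other WT MEF libraries, and in the last panel every MEF library (2582 CPM at most) lies below every mESC library (2742 CPM at least), the reverse of the first panel.

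Genes that work with the histone genes were counted from lists, which were chosen with earlier results of these data known. Of 20 replication and S phase genes, 14 were called lower in WT MEFs than in WT mESCs and 0 higher, beside 27.1% and 26.8% of all genes, with a median of -1.54. Their summed level was 2873 and 4513 CPM in WT mESCs and 931.6, 1615 and 1258 CPM in WT MEFs. In MEFs labelled Atxn7l3-/- it was 1977, 2582 and 1769 CPM, above every WT MEF library, and the median log2 fold change was 0.41. There Rrm1, a subunit of ribonucleotide reductase, was the 1 gene called, with a rise of 1.54 (SE 0.29, adjusted p = 0.0286, edgeR's quasi-likelihood test). In mESCs none of the 20 was called by edgeR's quasi-likelihood test, and the median was -0.34.

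Of 18 genes for the 3′ end processing and decay of histone RNA, 10 were called lower in WT MEFs, where 27.1% of all genes were, among them Npat, an activator of histone transcription, with a fall of 1.15 on the log2 scale, and Casp8ap2 (FLASH), which acts in histone 3′ end formation, with a fall of 1.81. Slbp was lower by 0.78 and had log2 fold changes of -0.71 in Atxn7l3-/- mESCs (adjusted p = 0.0982, edgeR's quasi-likelihood test) and 0.20 in -/- MEFs (adjusted p = 0.617). Srrt (ARS2), a cap-binding partner, was the 1 gene of the list called in Atxn7l3-/- mESCs, with a fall of 1.47, and Cstf2, which acts in cleavage before polyadenylation, the 1 called in -/- MEFs, with a rise of 0.97. Of 15 histone chaperones, 10 were called lower in WT MEFs and 0 higher, beside the same shares of all genes. In Atxn7l3-/- mESCs 1 of the 15 was called, Nasp, which binds H1 and H3-H4, with a fall of 1.39. In -/- MEFs none was called by edgeR's quasi-likelihood test, and the median was 0.37. The difference of the genotype effect between the cell types was called for 5 genes of the first list (Eri1 2.02, Casp8ap2 1.23, Srrt 1.23, Cpsf2 1.19 and Sympk -1.41 on the log2 scale), for Nasp (2.31) and Nap1l1 (1.47) among the chaperones, and for Ccne2 (2.42) and Rrm1 (1.72) among the S phase genes.

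Most histone variant genes outside the clusters make polyadenylated RNA, and H2afx makes both a polyadenylated form and one that ends at a stem-loop. Of the 14 listed, 11 were tested, and their median log2 fold change was 0.06 between WT MEFs and WT mESCs, 0.10 in Atxn7l3-/- mESCs and -0.10 in -/- MEFs. In WT MEFs 2 were called higher, H2afj and H1f0, and 2 lower, H2afz and H3f3b. In -/- MEFs 1 was called, H1fx, a variant of H1, with 3.01, 11.1 and 7.62 CPM in WT and 0.397, 0.281 and 0.986 CPM in -/- libraries (log2 fold change -3.70, SE 0.75, adjusted p = 0.0352, edgeR's quasi-likelihood test). In Atxn7l3-/- mESCs 1 was called, H2afx, the variant that is phosphorylated at DNA breaks, with a fall of 1.21. H1fx (-3.75) and H2afj (-3.34) were called in the difference between the cell types.

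The tables listed 7 genes for 1 cell type only. Hist1h2aa and Hist1h2al were listed for mESCs alone, with at most 1 and 2 counts in a library. Hist1h2aj, Hist1h2an, Hist2h2aa1, Hist1h4m and Hist1h4n were listed for MEFs alone, with at most 1 count in a library except for 4 counts of Hist1h4n in WT replicate 1. No fold is given for them.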

How the data were processed

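RNA was selected on poly(A) tails (TruSeq Stranded mRNA) and sequenced from 5 mESC and 6 MEF libraries. The authors deposited raw counts per gene and, beside them, a normalized count and a signal column per library, the latter a normalized count per kb of median transcript length. The deposited counts were used for every value, and the signal per kb only for the expression threshold of 1 alternative. The submitters' processing notes name bcl2fastq 2.17.1.14, cutadapt 1.10, STAR 2.5.3a, HTSeq 0.6.1p1, DESeq2 1.16.1 and mm10. Whether counting used strand is not given in the sources used here, so reads of genes that overlap on opposite strands may not be told apart. The columns of the authors' own comparisons (fold changes and p-values) were not used.

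Levels are CPM with TMM factors. Genes were tested with edgeR 4.0.16 (quasi-likelihood test, filterByExpr, R 4.3.3), with Benjamini-Hochberg adjustment over all genes tested and calls at an adjusted p of 0.05 or less. Each cell type was fitted by itself, and all 11 libraries together for the WT comparison and for the difference between cell types. The scripts were tested on simulated data. The alternatives were other scaling factors and filters, DESeq2 1.42.0, the study's thresholds, trends over length and GC content taken out, a replicate block, a joint fit, and leaving out each library. Counting intervals are exact 95% intervals and cover counting error only, and the floor is 3 counts per library.

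The clustered histone genes and the gene lists were chosen with earlier results of these data known. Genes were named where they were among the 10 highest per kb over all libraries, led their class, were called (the 10 largest per direction and comparison), were among the 5 highest H2B genes of a cell type, or were listed for 1 cell type. Other genes were named where they were called, at most 3 per direction and list. Hist1h1a, Hist1h1b, Hist1h3c, Hist1h1d, Hist1h1e, Hist1h4c, Slbp, Npat, Srrt, Cpsf2, Rn7sk and others outside this rule were named after their values were seen. The main tests took no pairs, and replicate number entered only in the block alternatives. Same-numbered MEF libraries deviated together (correlations of deviations from the group means 0.473, 0.161 and 0.240). Since that was seen in these same data, comparisons by number in MEFs are given as description only.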

Additional observations from a re-analysis of the deposited data

Results flagged for a closer look

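The genotype effect on Hist1h4i differed between the cell types by the test of that difference. Its log2 fold change in MEFs minus that in mESCs was -2.46 (SE 0.70, adjusted p = 0.0457, edgeR's quasi-likelihood test). It had 282, 179 and 349 counts in WT MEFs, 57, 63 and 50 in MEFs labelled Atxn7l3-/-, 76 and 73 in WT mESCs, and 119, 52 and 68 in Atxn7l3-/- mESCs. With the replicate block the value was -2.40 and the adjusted p was 0.0958, so that the call was not made.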

How the results depend on the processing

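No called log2 fold change of a named clustered histone gene changed sign under any alternative run, but values that were not called did, and the median over the 15 genes tested in mESCs, -0.28, ran from -1.02 to 0.28 as single libraries were left out and was -0.99 with the replicate block. In Atxn7l3-/- mESCs, calls over all genes were 548 higher and 690 lower. They became 1390 and 1605 with no filter, 1739 and 1687 with DESeq2 (1 histone gene lower), and 144 and 302 in the joint fit, and the lower ones became 342 under the study's thresholds and 449 with at least 10 counts in every library. In MEFs, 800 and 701 became 514 and 332 with at least 10 counts in every library, 1723 and 2213 with DESeq2 (6 histone genes lower) and 1513 and 2056 in the joint fit. The higher ones became 1349 with the length trend taken out and the lower ones 1355 with the replicate block. For the difference between cell types, 1187 and 1018 became 2055 and 2191 with DESeq2. The higher ones became 615 with the replicate block, and the lower ones 564 with the GC trend taken out and 531 with it and the replicate block. The 1 histone gene called lower there became 0 with no filter, the length trend, the GC trend, the replicate block or the GC trend with the block, and in the last 1 was called higher. Between WT cells, 5180 and 5243 became 3218 and 3237 with at least 10 counts in every library (5 histone genes higher, 0 lower), and the lower ones 2923 under the study's thresholds (0 histone genes lower). The summed histone ratio of WT MEFs to WT mESCs went from 9.19 to 7.51 with no scaling factor. The cause of these shifts was not tested.

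Leaving out 1 library gave 0 to 1061 genes higher and 0 to 1181 lower in mESCs, with 0 without either WT library, 120 to 989 and 77 to 1049 in MEFs, 197 to 1531 and 56 to 1609 for the difference, and 2991 to 5263 and 3527 to 5278 between WT cells. Histone genes called were 0 to 3 lower in MEFs, 0 to 1 lower for the difference, and 9 to 21 higher and 0 to 1 lower between WT cells. In mESCs the numbers do not pair the libraries (correlations 0.00777 and -0.172), and the replicate block gave 720 and 728 calls, none of a histone gene. Of the 64 genes, 32 did not pass the filter in any fit and were not tested at this depth. Between WT cells, the replicate block took the histone genes called higher from 20 to 17. There it joined mESC lines with MEF embryos by number alone, which is no known pairing.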
